A study of Mus musculus with 91 samples.

Results

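The genes described here encode hydrolases and membrane proteins of the lysosome, with a few factors that serve its transport. A list of 36 gene symbols, with no cathepsins in it, was chosen with earlier results of these data known. It was matched to the annotation of the array, and the brightest probe of each gene was used in both tissues. Of these 36 genes, 33 had an annotated probe and were detected, out of 12115 genes named on the array. Cd68, Gla and Npc1 had no probe under their symbols and were not analysed here. All 33 were tested in frontal cortex and 32 in hippocampus, where the dim probe of Sgsh did not pass the filter for detection.

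The lysosome is the acidic compartment in which cells break down proteins, glycans and lipids taken up from outside or delivered by autophagy. Soluble hydrolases do the cutting, a proton pump acidifies the lumen, and membrane proteins protect the boundary, carry products out and tie the organelle to the cytoskeleton. In brain, microglia are rich in lysosomes and take up debris around amyloid plaques, while inherited loss of many of these hydrolases causes storage disease of neurons. Many lysosomal genes are known to carry, near the start of transcription, a short motif built on the E-box CACGTG that the transcription factor TFEB binds.

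RNA of brain tissue was measured on Illumina bead arrays in 4 groups of mice. APP/PS1 mice carry 2 transgenes, deposit amyloid and serve to model Alzheimer's disease. They had been given a CD33-specific antisense oligonucleotide (CD33 ASO), a non-target Control ASO (CON ASO), or PBS, the vehicle. Wild-type (WT) littermates had been given PBS only. CD33 is a receptor that restrains microglia and related myeloid cells, and antisense oligonucleotides are made to bind one messenger RNA and reduce its level. All mice carried an osmotic pump with a cannula into the right lateral ventricle and were housed singly after surgery. Oligonucleotide was infused at 50 µg per day over 14 days, beginning at an age of 18 weeks, and the left hemisphere was dissected at 22 weeks. Frontal cortex was measured in 11 CD33 ASO, 13 CON ASO, 9 APP/PS1 PBS and 12 WT PBS mice, and hippocampus in 12, 13, 9 and 12 mice of the same groups. The promoters that drive the transgenes are not given in the sources used here. No mouse labelled WT received an oligonucleotide, so the oligonucleotides were compared in mice labelled APP/PS1 alone.

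The 91 arrays came from 47 mice and detected between 12555 and 13905 of 25697 probes each. Their number limits the precision. Each tissue was spread over 6 chips of its own and 4 collection days, with the 4 groups present on each. All signals below are on a log2 scale, with an offset of 16 added before the logarithm, so that differences of dim genes are understated. The mean of hippocampal-field markers ran from 10.83 to 11.16 in hippocampal arrays and from 7.80 to 8.33 in cortical arrays. Striatal markers ran from 7.72 to 8.17 in hippocampal arrays and from 10.21 to 11.10 in arrays labelled frontal cortex. Cd33, the target, averaged 5.60 ± 0.39 under CD33 ASO and 6.52 ± 0.18 under CON ASO in hippocampus (SD, n = 12 and 13), and 6.37 ± 0.56 under CD33 ASO and 7.08 ± 0.26 under CON ASO in cortex (SD, n = 11 and 13). One mouse, replicate 3 of CD33 ASO in both tissues, went against the genotype of its label by Thy1. Its Thy1 signal was 14.02 in hippocampus and 14.10 in cortex, inside the WT PBS ranges of 13.96 to 14.18 and 14.08 to 14.24, where the lowest APP/PS1 PBS arrays stood at 14.81 and 14.80. Its Cd33 signal was 5.32 in hippocampus and 5.05 in cortex, where the lowest WT PBS array stood at 5.66 in each tissue. Trem2, a microglial gene, stood at 9.18 in its hippocampus and 9.38 in its cortex. These values lay above the highest WT PBS arrays (8.95 and 9.07) and below the lowest APP/PS1 PBS arrays (10.28 and 10.99). The Cd33 averages above include this mouse. It is called the mouse labelled CD33 ASO replicate 3 below. The mice of CD33 ASO replicates 7 and 10 in hippocampus had no cortical array, and results of CD33 ASO were also computed without them. A gene was called where its limma adjusted p, with Benjamini-Hochberg adjustment over all probes tested, was under 0.05.

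A few promoter sequences are shown because they set lysosomal genes that carry the E-box beside genes that differed most between genotypes. Promoters of 33 of the 36 genes were found in the RefSeq table (build GRCm38.p6), which holds 250 bases before and 50 after each gene's start. Each run below is the 80 bases before the start, 5′ to 3′ on the gene's strand, in lower case with every CACGTG in capitals. Lamp1, Mcoln1, Glb1 and Naglu carry it in this stretch, and were called between genotypes in cortex alone. Gusb, Hexa, Grn and Laptm5, which were called in both tissues, hold none there.
Lamp1: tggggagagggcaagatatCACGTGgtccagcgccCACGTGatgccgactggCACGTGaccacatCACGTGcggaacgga
Mcoln1: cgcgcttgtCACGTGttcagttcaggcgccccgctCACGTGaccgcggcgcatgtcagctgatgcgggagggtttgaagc
Glb1: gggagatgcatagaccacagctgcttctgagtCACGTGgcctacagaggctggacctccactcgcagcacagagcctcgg
Naglu: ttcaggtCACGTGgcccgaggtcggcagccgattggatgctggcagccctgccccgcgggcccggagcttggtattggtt
Gusb: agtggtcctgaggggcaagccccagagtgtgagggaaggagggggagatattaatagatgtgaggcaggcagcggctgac
Hexa: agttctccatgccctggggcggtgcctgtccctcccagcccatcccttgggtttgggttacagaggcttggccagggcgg
Grn: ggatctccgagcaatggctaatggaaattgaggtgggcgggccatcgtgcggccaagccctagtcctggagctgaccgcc
Laptm5: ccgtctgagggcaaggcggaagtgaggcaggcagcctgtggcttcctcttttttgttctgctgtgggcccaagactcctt

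The Lamp1 stretch lies at chr8:13159081-13159160 on the plus strand, and its 4 E-boxes begin 61, 45, 28 and 15 bases before the start. The Mcoln1 stretch, at chr8:3500439-3500518 on the plus strand, holds 2, beginning 71 and 45 bases before the start. Glb1 at chr9:114400998-114401077 and Naglu at chr11:101070014-101070093, both on the plus strand, hold 1 each, beginning 48 and 73 bases before the start. The stretches without one are chr5:130003050-130003129 on the minus strand for Gusb, and on the plus strand chr9:59539460-59539539 for Hexa, chr11:102430427-102430506 for Grn and chr4:130913236-130913315 for Laptm5.

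Over the whole windows, CACGTG, which reads the same on both strands, was found in 8 of the 33 promoters (24.2%) and in 2187 of 27025 genes in the table (8.09%). The genes were Glb1, Naglu, Gaa, Gla, Sgsh, Arsa, Lamp1 and Mcoln1. The longer GTCACGTG, searched on both strands and holding CACGTG within it, was in 7 of 33 (21.2%) and in 689 of all genes (2.55%). Its full palindromic form, extended to read the same on both strands, was in 0 of 33 promoters. That form was in 100 of all genes (0.370%), too rare for 0 of 33 to show a lower share. These matches describe letters in a window and name no binding site.

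The first comparison asked how APP/PS1 mice differ from WT mice without any oligonucleotide. In frontal cortex of APP/PS1 PBS mice, 19 of 33 lysosomal genes were higher than in WT PBS mice and 1 was lower (8.53% of all probes were higher and 10.7% lower, 19.3% together, out of 14346). The median difference of the 33 genes was 0.21, against -0.03 over all probes. Among the genes that rose were the glycan-cutting enzymes Gusb, Hexa and Man2b1, progranulin (Grn), the myeloid membrane protein Laptm5 and the proton pump subunit Tcirg1. The gene that fell was Mcoln1, a calcium channel of the lysosomal membrane. In hippocampus 6 of 32 genes were higher and 0 lower by limma, with 13 at an unadjusted p under 0.05 (1.82% of all probes were higher and 0.671% lower, 2.49% together, out of 14449). At that unadjusted threshold stood 2396 of the 14449 hippocampal probes. The median difference of the 32 genes was 0.14, against -0.00051 over all probes. These are bulk tissues, in which fewer cells of a type and less RNA per cell cannot be told apart.

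Glycan and glycosaminoglycan hydrolases take sugars and sulfate groups off glycoproteins and matrix chains, and 6 of 13 tested members rose in cortex. Gusb, β-glucuronidase, was at 10.17, 10.81 and 10.99 (lowest, median and highest log2 signal) on APP/PS1 PBS arrays and at 8.62, 9.02 and 9.36 on WT PBS arrays. The groups did not overlap, and the difference was 1.67 ± 0.13 (SE, n = 9 against 12, adjusted p = 1.78e-13), or 3.19-fold on the scale with the offset. The other Gusb probes gave 1.71 and 1.17. Hexa, the α subunit of the ganglioside-degrading β-hexosaminidase, stood at 10.86, 11.05 and 11.22 in APP/PS1 PBS and at 9.95, 10.12 and 10.26 in WT PBS, again without overlap. Its difference was 0.94 ± 0.07 (adjusted p = 4.36e-14). Man2b1, the lysosomal α-mannosidase, was at 11.63, 11.81 and 12.05 in APP/PS1 PBS and at 10.82, 10.92 and 11.08 in WT PBS, a difference of 0.89 ± 0.08 (adjusted p = 2.6e-12) with no overlap.

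Further glycan enzymes differed by less. Naglu, which cuts heparan sulfate, rose by 0.56 ± 0.11 (adjusted p = 0.000294), the β-galactosidase Glb1 by 0.30 ± 0.05 (adjusted p = 8.38e-06) and the β-mannosidase Manba by 0.21 ± 0.05 (adjusted p = 0.00408). A second Manba probe gave 0.11 (adjusted p = 0.469), and the mean of both probes was not called. α-Iduronidase (Idua), acid α-glucosidase (Gaa), the sialidase Neu1 and the sulfatases Galns, Arsb, Ids and Sgsh lay between -0.26 for Sgsh and 0.19 for Idua and were not called. Sgsh was detected on 10 of 45 cortical arrays.

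Of the lipid hydrolases, their activators and cholesterol carriers, 4 of 8 rose in cortex. Npc2, which hands on cholesterol inside the lysosome, was at 8.13, 8.47 and 9.04 in APP/PS1 PBS and at 7.23, 7.82 and 8.29 in WT PBS. The ranges overlapped, though all 9 APP/PS1 PBS arrays stood above the WT median, and the difference was 0.74 ± 0.15 (adjusted p = 0.000446). The acid lipase Lipa rose by 0.41 ± 0.12 (adjusted p = 0.0137), the ganglioside activator Gm2a by 0.29 ± 0.06 (adjusted p = 0.000307) and acid ceramidase (Asah1) by 0.20 ± 0.04 (adjusted p = 3.23e-05). A second Asah1 probe gave 0.05 (adjusted p = 0.862), and the mean of both was not called. Psap, the precursor of the saposins, acid sphingomyelinase (Smpd1), galactosylceramidase (Galc) and the sulfatide-cutting Arsa differed by -0.05, -0.05, -0.05 and 0.08 and were not called. Another Smpd1 probe was lower, at -0.13 (adjusted p = 0.0392). Galc was detected on 38 of 46 hippocampal and 26 of 45 cortical arrays.

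Progranulin (Grn), a secreted protein that is cut into granulins inside the lysosome, was at 11.42, 11.81 and 11.99 in APP/PS1 PBS cortex, against 10.39, 10.55 and 10.72 in WT PBS cortex. Every APP/PS1 PBS array lay above every WT PBS array, and the difference was 1.23 ± 0.11 (adjusted p = 1.47e-12). The peptidase Tpp1 rose by 0.33 ± 0.06 (adjusted p = 1.58e-05), and the depalmitoylating enzyme Ppt1 differed by 0.05 and was not called.

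Membrane proteins held 7 of 9 tested members that rose in cortex and the 1 that fell. Laptm5, a lysosomal membrane protein of blood-lineage cells, was at 13.08, 13.37 and 13.50 in APP/PS1 PBS and at 11.88, 11.97 and 12.09 in WT PBS. A wide gap lay between the groups, and the difference was 1.37 ± 0.12 (adjusted p = 1.27e-12). Tcirg1, a subunit of the proton-pumping V-ATPase, was at 8.41, 8.87 and 9.23 in APP/PS1 PBS and at 7.79, 8.00 and 8.28 in WT PBS. The groups did not overlap, the difference was 0.82 ± 0.12 (adjusted p = 3.91e-07), and the other Tcirg1 probes gave 0.65 to 0.93. The tetraspanin Cd63, a marker of late endosomes, was at 11.65, 11.92 and 12.18 in APP/PS1 PBS and at 11.05, 11.20 and 11.27 in WT PBS, a difference of 0.74 ± 0.06 (adjusted p = 6.4e-13) without overlap. Lamp2, which lines the lysosome and takes part in autophagy, was at 10.95, 11.09 and 11.32 in APP/PS1 PBS and at 10.30, 10.62 and 10.80 in WT PBS. Its groups did not overlap either, and it rose by 0.55 ± 0.07 (adjusted p = 1.34e-08).

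The receptor Scarb2, which carries glucocerebrosidase to the lysosome, rose by 0.32 ± 0.07 (adjusted p = 0.000639) and the lining protein Lamp1 by 0.20 ± 0.06 (adjusted p = 0.0103). The Lamp1 call was lost with median centring of the arrays (adjusted p = 0.0801). The adaptor Fyco1, which links late endosomes and autophagosomes to kinesin, rose by 0.31 ± 0.11 (adjusted p = 0.0327). That call was lost without any single one of 7 arrays (APP/PS1 PBS replicates 2, 5, 6, 7 and 8, WT PBS replicates 2 and 11), with an adjusted p of up to 0.0729. Laptm4a, a small membrane protein of late endosomes, differed by -0.02 and was not called. Mcoln1 was at 7.63, 7.86 and 8.13 in APP/PS1 PBS cortex and at 7.81, 8.15 and 8.20 in WT PBS cortex. The ranges overlapped, but all 9 APP/PS1 PBS arrays lay below the WT median, and the difference of -0.28 ± 0.07 was called (adjusted p = 0.00408). All 20 cortical and all 6 hippocampal calls kept their sign on each of the 6 chips and 4 days, Mcoln1 with -0.43 to -0.04 over the chips.

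**Figure D1:**
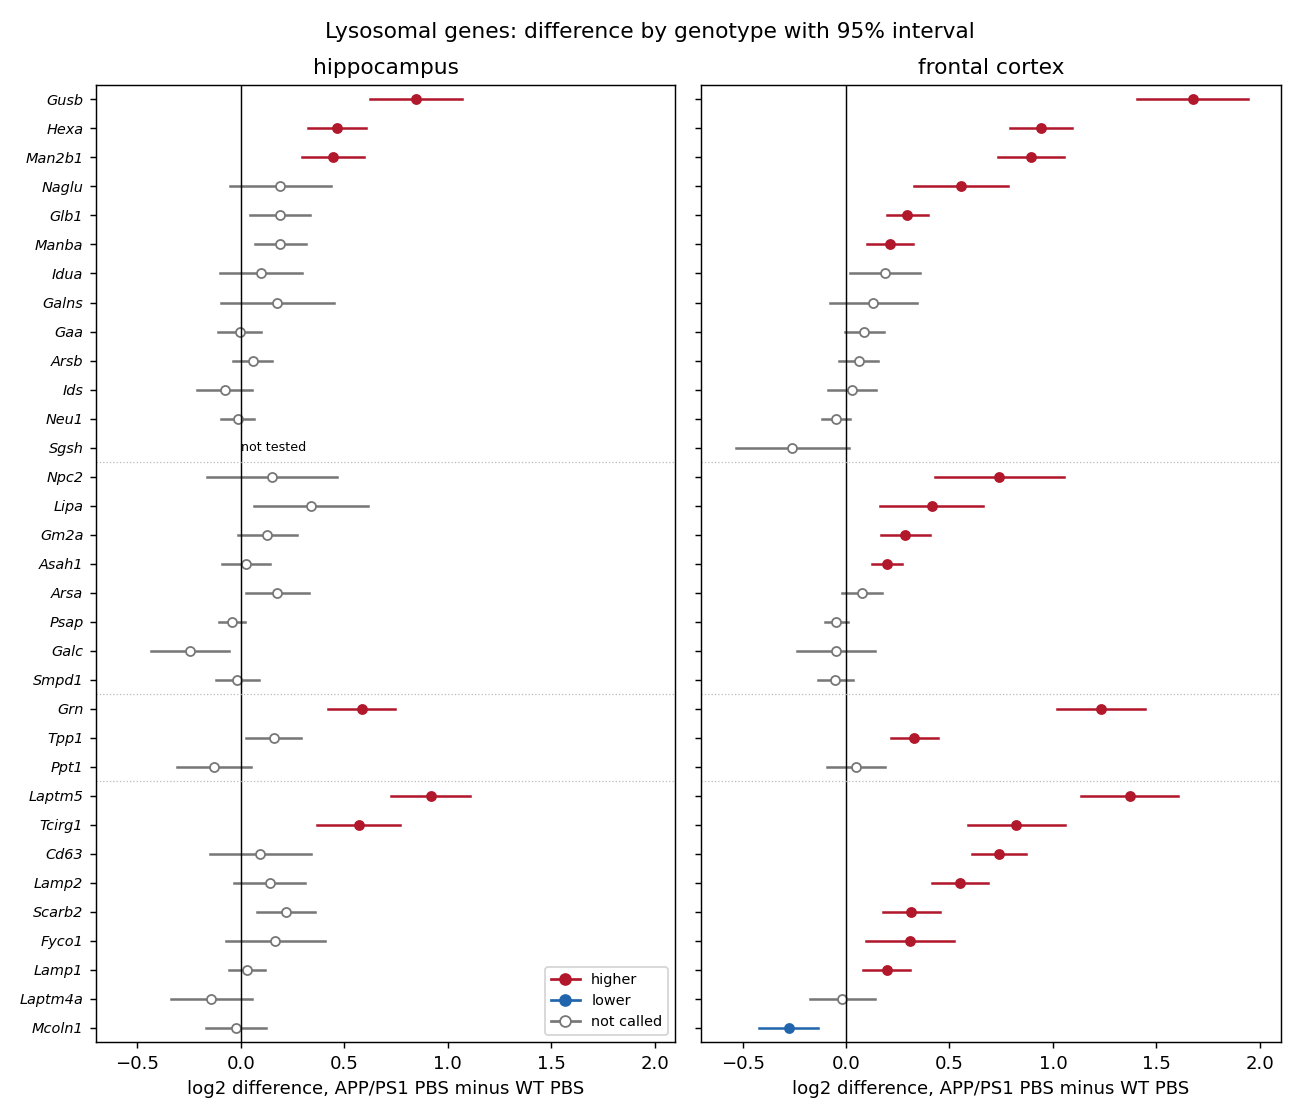
Log2 difference of APP/PS1 PBS minus WT PBS (x axis) for each lysosomal gene (y axis, dotted lines between roles) in hippocampus (left) and frontal cortex (right), as limma estimates with 95% intervals, filled where called. In hippocampus 6 genes are called, and in cortex 19 lie right of 0 and Mcoln1 left of it.

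In hippocampus the 6 genes that rose, Laptm5, Gusb, Grn, Tcirg1, Hexa and Man2b1, were also called in cortex. Laptm5 was at 12.37, 12.72 and 13.08 in APP/PS1 PBS and at 11.61, 11.77 and 11.92 in WT PBS, and rose by 0.92 ± 0.09 (adjusted p = 7.77e-10). Gusb was at 9.65, 9.88 and 10.36 in APP/PS1 PBS and at 8.66, 9.15 and 9.36 in WT PBS, and rose by 0.85 ± 0.11 (adjusted p = 1.79e-07). Grn was at 11.00, 11.18 and 11.49 in APP/PS1 PBS and at 10.42, 10.59 and 10.81 in WT PBS, a difference of 0.58 ± 0.08 (adjusted p = 4.64e-07). In these genes no APP/PS1 PBS array reached down to a WT PBS array. The same held for Man2b1, at 11.17, 11.33 and 11.52 in APP/PS1 PBS and at 10.63, 10.89 and 11.13 in WT PBS, which rose by 0.45 ± 0.07 (adjusted p = 3.1e-05). Tcirg1 was at 8.24, 8.53 and 8.79 in APP/PS1 PBS and at 7.56, 7.96 and 8.36 in WT PBS, and rose by 0.57 ± 0.10 (adjusted p = 7.98e-05). Hexa was at 10.32, 10.60 and 10.85 in APP/PS1 PBS and at 9.80, 10.10 and 10.37 in WT PBS, and rose by 0.47 ± 0.07 (adjusted p = 3.67e-06). Both overlapped, with all 9 APP/PS1 PBS arrays above the WT median. Of the Tcirg1 probes, a pair gave 0.21 and 0.24 in hippocampus and was not called. Of the lipid enzymes and carriers 0 of 8 were called by limma (3 at an unadjusted p under 0.05), Lipa having the highest difference at 0.34 ± 0.14 (adjusted p = 0.185). The 26 genes not called had 95% intervals that reached from -0.44 for Galc to 0.62 for Lipa.

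**Figure D2:**
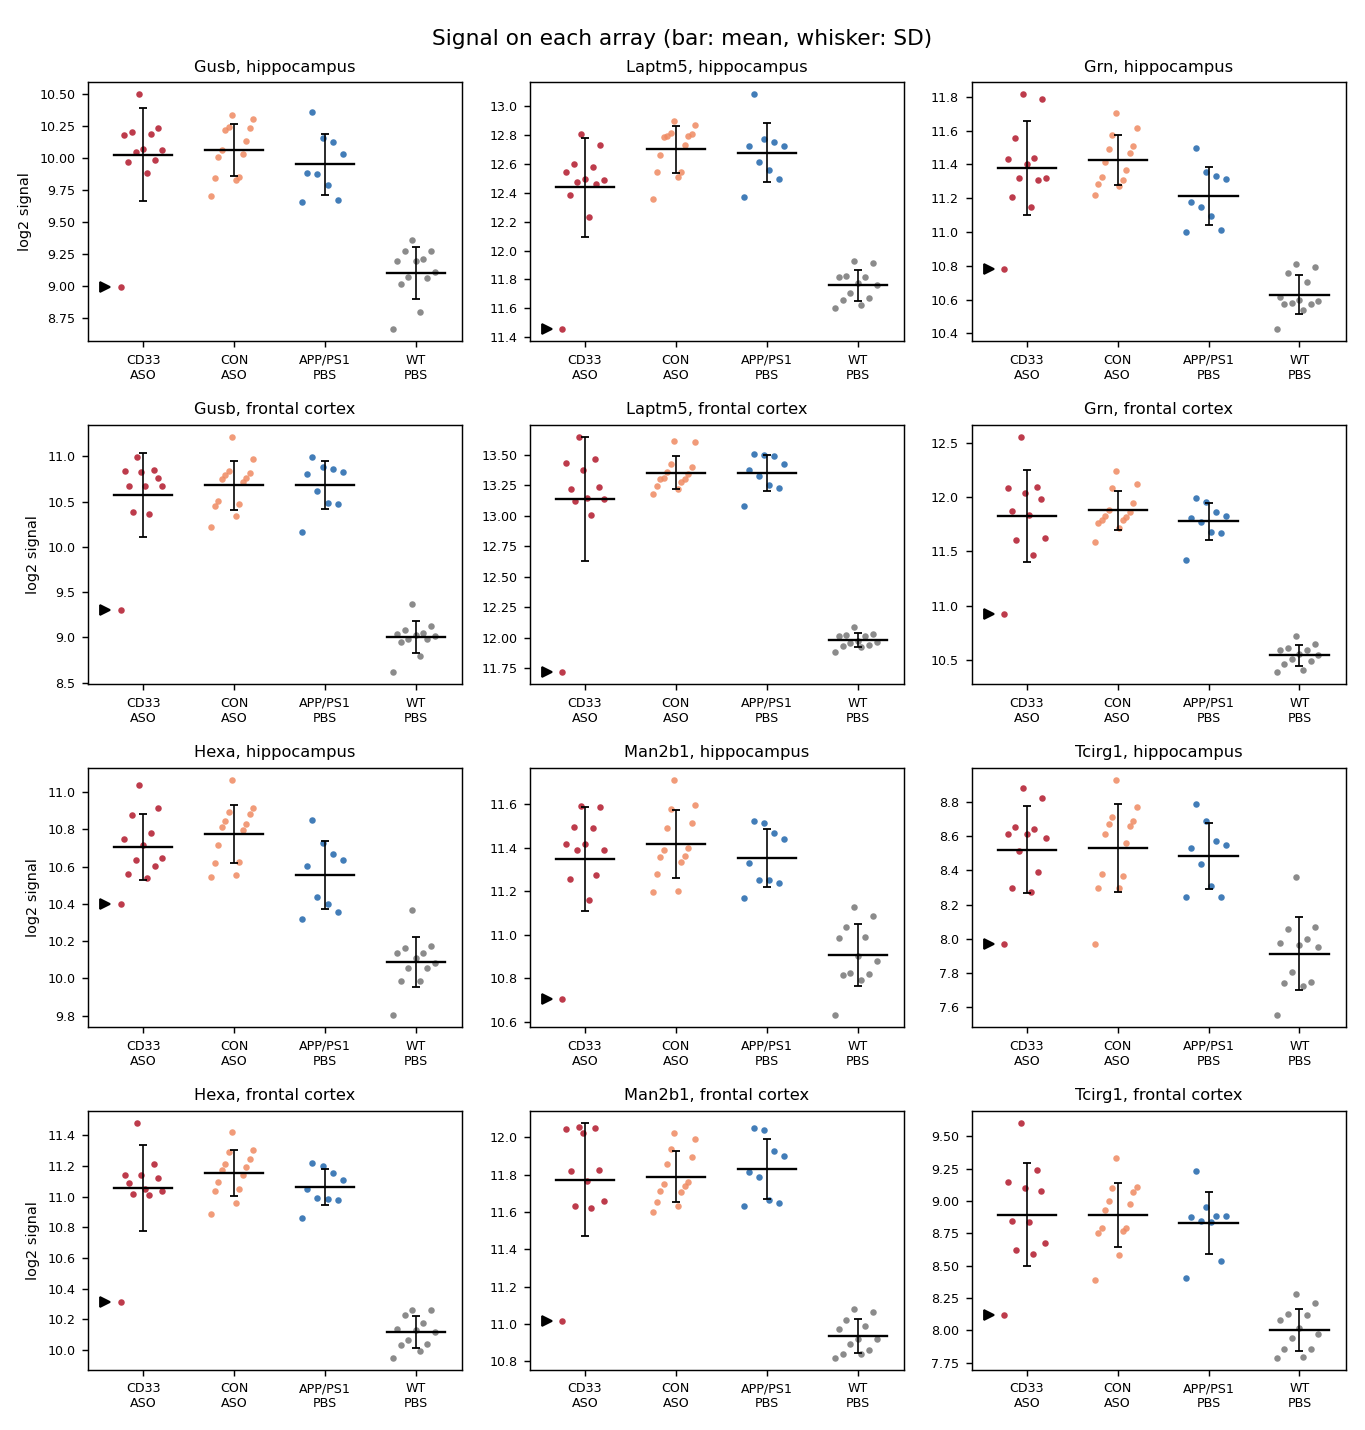
Log2 signal (y axes, scaled to each panel) on every array of the 4 groups (x axes) for the 6 genes called in both tissues, with bars for the mean, whiskers for SD and a black arrowhead for the mouse labelled CD33 ASO replicate 3. That mouse lies below all other CD33 ASO arrays in all 12 panels, and the APP/PS1 PBS mean lies above the WT PBS mean in each.

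Whether the genotype difference itself differed between tissues was tested as an interaction in a joint fit of all arrays, with mice as random blocks. It was smaller in hippocampus than in cortex for 7 of 33 genes and larger for 0, with 14 at an unadjusted p under 0.05 (1.03% of all probes with a larger and 2.35% with a smaller difference in hippocampus, 3.38% together, out of 14884). Of all 14884 probes, 2324 had an unadjusted p under 0.05 in this test. Gusb had the biggest gap, with a hippocampal minus cortical difference of -0.86 ± 0.15 (adjusted p = 0.000162). Grn followed with -0.65 ± 0.12 (adjusted p = 0.000224), Cd63 with -0.64 ± 0.12 (adjusted p = 0.000461) and Hexa with -0.49 ± 0.09 (adjusted p = 0.000308). Laptm5 differed by -0.46 ± 0.13 (adjusted p = 0.0292), Man2b1 by -0.44 ± 0.10 (adjusted p = 0.00282) and Lamp2 by -0.42 ± 0.10 (adjusted p = 0.00653). Without mice as blocks Laptm5 was no longer called (adjusted p = 0.106). Cd63 was at 11.44, 11.73 and 12.16 in APP/PS1 PBS hippocampus and at 11.21, 11.67 and 12.11 in WT PBS hippocampus, while Lamp2 was at 10.23, 10.60 and 10.93 in APP/PS1 PBS and at 10.12, 10.45 and 10.86 in WT PBS. In hippocampus their groups overlapped widely, with differences of 0.09 ± 0.12 and 0.14 ± 0.09.

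**Figure D3:**
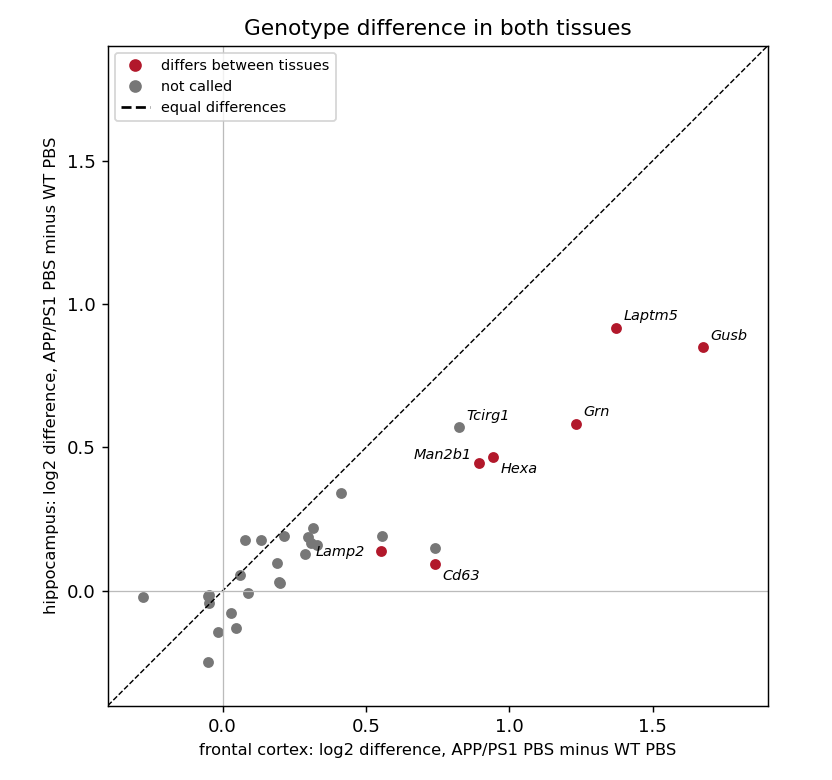
Log2 difference of APP/PS1 PBS minus WT PBS in hippocampus (y axis) against that in frontal cortex (x axis) for the 32 genes tested in both tissues. Red points are the 7 genes whose difference was smaller in hippocampus by the interaction test, and all of them lie below the dashed line of equal differences.

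In WT PBS mice alone, hippocampus minus cortex was called higher for 10 and lower for 5 of 33 genes (29.3% higher and 26.2% lower of all probes, 55.5% together). The share of lysosomal genes called was not tested against that of all probes. No chip held arrays of both tissues, so a difference between tissues cannot be told apart from one between chips. Cd63 was higher in hippocampus by 0.61 ± 0.08, and the difference of Npc2 was -0.49 ± 0.13. The split depended on the scaling: with each tissue normalised alone, 4 genes were called higher and 11 lower, and the median of all probes was -0.14 in place of 0.02.

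Microglial genes moved with the genotype differences. Of 19 listed microglial markers 16 were tested, and 14 rose in APP/PS1 PBS hippocampus (median difference 0.91) and 16 in cortex (median 1.56). Their mean signal per array ran from 9.10 to 9.82 in APP/PS1 PBS hippocampus, against 8.17 to 8.53 in WT PBS hippocampus. In cortex it ran from 9.98 to 10.52 in APP/PS1 PBS, against 8.51 to 8.79 in WT PBS. Of 12 astrocytic markers 2 rose in hippocampus and 9 in cortex. Of 8 neuronal markers 0 rose in either tissue by limma, and 1 fell in cortex (2 and 2 at an unadjusted p under 0.05). Among all probes, 1.82% rose and 0.671% fell in hippocampus, and 8.53% rose and 10.7% fell in cortex. The 1 of 8 neuronal markers that fell is near the share of all cortical probes that fell. The part of these cell types in the lysosomal differences was not tested. The microglial list holds Ctss, itself a lysosomal protease.

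Within groups, each lysosomal gene was set against the microglial mean, a measure added after the data were seen. The group mean was taken off both values on each array, and the mouse labelled CD33 ASO replicate 3 was left out. Every probe tested was related to the mean in the same way, apart from the marker probes that form it, and p-values were adjusted over all of them in each tissue (14433 in hippocampus and 14330 in cortex). By adjusted permutation p of both Pearson's r and Spearman's rho, 1 of 32 genes rose with the microglial mean in hippocampus (n = 45, 0.492% of all probes rose with it and 0.284% fell, 0.776% together) and 7 of 33 in cortex (n = 44, 1.12% of all probes rose with it and 0.244% fell, 1.37% together). Permutations ran over all arrays and not within groups, while the spread of the microglial mean differed between groups. Its SD in cortex was 0.07 in WT PBS and 0.18 in APP/PS1 PBS, so calls near the threshold are less certain. Laptm5 had r = 0.763 and rho = 0.714 in hippocampus and r = 0.775 and rho = 0.721 in cortex. Each had permutation p = 1e-05, the smallest that 100000 permutations can give, and the adjusted permutation p was 0.00314 for r and 0.00656 for rho in hippocampus and 0.00243 and 0.00358 in cortex. Without the 2 arrays farthest from the median, r of Laptm5 was 0.670 in hippocampus and 0.735 in cortex. With day means removed it was 0.724 and 0.761, and with chip means removed 0.781 and 0.806. Grn had r = 0.597 and rho = 0.487 in hippocampus (adjusted permutation p = 0.00698 and 0.0565), and was not called there. In cortex Grn had r = 0.706 and rho = 0.654 (adjusted permutation p = 0.00243 and 0.00521).

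The remaining cortical genes called were Gusb (r = 0.607), Lamp2 (0.569), Man2b1 (0.564), Tcirg1 (0.514) and Npc2 (0.506). Without the 2 farthest arrays the lowest r among these was 0.447, for Npc2. Their highest adjusted permutation p for rho was 0.0451, for Man2b1. Cd63 (r = 0.589), Glb1 (0.558) and Hexa (0.513) passed the adjusted permutation test for r and not for rho, and r of Hexa was 0.308 without the 2 farthest arrays. The 13 genes not called between genotypes in cortex gave r from -0.214 for Gaa to 0.363 for Galc.

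By promoter, 0 of 6 genes that hold CACGTG in the window were higher in APP/PS1 PBS hippocampus, against 6 of 24 without it, with median differences of 0.10 and 0.14. In cortex 3 of 7 with it were higher and 1 lower, against 15 of 24 higher without it, with medians of 0.09 and 0.31. This split is a description without a test.

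Lysosomal genes outside the list were read by function, beside the 8.53% of all cortical probes that were higher and the 10.7% that were lower. Of 15 other hydrolases and activators 7 rose and 0 fell in cortex, with the hyaluronidase Hyal1 at 0.68 ± 0.19, Dnase2a, which cuts DNA, at 0.67 ± 0.11 and the endopeptidase Lgmn at 0.52 ± 0.07. Of 23 other membrane proteins 8 rose and 1 fell, led by the peptide transporter Slc15a3 at 2.46 ± 0.20, the metal transporter Slc11a1, 2.64-fold higher, and the nucleoside transporter Slc29a3 at 0.64 ± 0.10. The membrane protein that fell was Ostm1 at -0.09 ± 0.03. Among 17 V-ATPase subunits other than Tcirg1, 2 rose (Atp6v0e at 0.26 ± 0.06 and Atp6v0a2 at 0.18 ± 0.06) and 7 fell, with Atp6v1c1 at -0.23 ± 0.07, Atp6v0e2 at -0.22 ± 0.04 and Atp6v1e1 at -0.15 ± 0.03. Of 27 sorting receptors and adaptors 0 rose and 3 fell, Vps41 at -0.32 ± 0.06, Sorl1 at -0.23 ± 0.06 and Vps35 at -0.16 ± 0.06, a share near that of all probes. Of 10 regulators of lysosomal genes 1 rose, Lamtor4 at 0.12 ± 0.04, which is also near the share of all probes.

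In hippocampus, 2.49% of all probes were called, against 19.3% in cortex, and the lists also held fewer calls. Of the 15 hydrolases 2 rose, Lgmn at 0.24 ± 0.05 and Pla2g15 at 0.19 ± 0.05. Of the 23 membrane proteins 4 rose, with Slc15a3 at 1.67 ± 0.14, Slc11a1 at 0.84 ± 0.10 and Slc29a3 at 0.40 ± 0.09. Of the sorting genes 1 rose, Vps33a at 0.16 ± 0.04. By limma 0 of 17 V-ATPase subunits and 0 of 10 regulators were called, with 2 and 1 at an unadjusted p under 0.05.

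The remaining comparisons asked what each oligonucleotide did to these genes in APP/PS1 mice. They share groups: CD33 ASO and CON ASO are both set against the same APP/PS1 PBS arrays, and CD33 ASO against the same CON ASO arrays. In cortex CD33 ASO minus CON ASO gave 1 call of 33, a fall of Fyco1 (0.0697% of all probes were higher and 0.0836% lower, 0.153% together). CD33 ASO minus APP/PS1 PBS gave 1, again Fyco1 lower (0.516% of all probes were higher and 0.843% lower, 1.36% together), and CON ASO minus APP/PS1 PBS gave 0 (1.15% of all probes were higher and 1.48% lower, 2.63% together). At an unadjusted limma p under 0.05 they gave 3, 1 and 2 genes. For CON ASO minus APP/PS1 PBS, 2169 of all 14346 cortical probes had such a p. In hippocampus CD33 ASO minus CON ASO gave 0 of 32 (0.0277% of all probes were higher and 0.09% lower, 0.118% together), CD33 ASO minus APP/PS1 PBS gave 0 (0.18% of all probes were higher and 0.325% lower, 0.505% together) and CON ASO minus APP/PS1 PBS gave 0 (0.824% of all probes were higher and 0.471% lower, 1.29% together). There 3, 8 and 4 genes had an unadjusted limma p under 0.05. For CON ASO minus APP/PS1 PBS, 1928 of all 14449 hippocampal probes did. The unadjusted counts of the lysosomal genes were not tested against those of all probes.

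Gusb in cortex averaged 10.58 ± 0.46 (SD, n = 11) under CD33 ASO, 10.68 ± 0.27 (SD, n = 13) under CON ASO, 10.68 ± 0.26 (SD, n = 9) in APP/PS1 PBS and 9.00 ± 0.18 (SD, n = 12) in WT PBS. CD33 ASO minus CON ASO was -0.10 ± 0.12, with a 95% interval of -0.35 to 0.15. The mouse labelled CD33 ASO replicate 3 had 9.30, where the other CD33 ASO arrays began at 10.36. Laptm5 differed between CD33 ASO and CON ASO by -0.26 in hippocampus (interval -0.44 to -0.09, adjusted p = 0.602) and by -0.22 in cortex (interval -0.43 to 0.00242, adjusted p = 0.512), and was not called. Without the mouse labelled CD33 ASO replicate 3, the group means of CD33 ASO and CON ASO differed by 0.02 for Gusb in cortex, and for Laptm5 by -0.17 in hippocampus and -0.07 in cortex. Hexa and Grn in hippocampus differed by 0.22 and 0.21 between CON ASO and APP/PS1 PBS (adjusted p = 0.094 and 0.18). Over the genes not called in CD33 ASO minus CON ASO, the 95% intervals reached from -0.52 to 0.28 in hippocampus and from -0.43 to 0.44 in cortex.

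**Figure D4:**
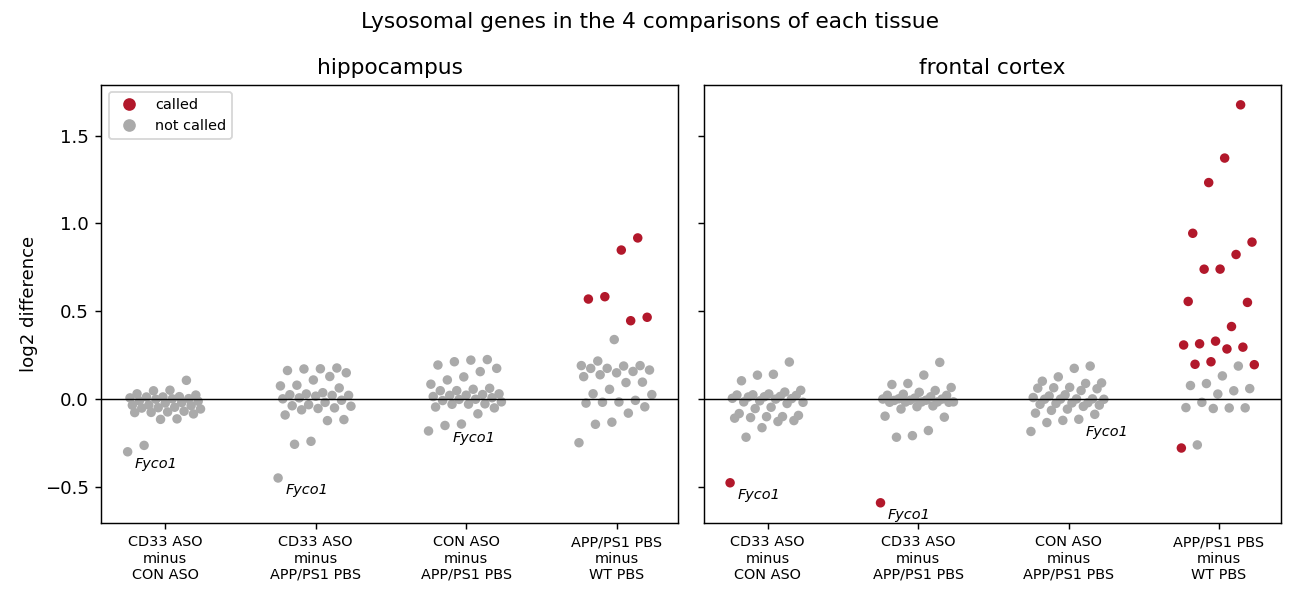
Log2 difference (y axis) of each lysosomal gene in the 4 comparisons (x axis) in hippocampus (left) and frontal cortex (right), called genes in red. In the treatment comparisons only Fyco1 in cortex is called, and the genotype comparison reaches 0.92 in hippocampus and 1.67 in cortex.

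Fyco1, read by 1 probe, was lower in cortex of CD33 ASO mice than in both other APP/PS1 groups. CD33 ASO arrays were at 7.38, 8.09 and 8.33 (lowest, median and highest), against 8.02, 8.49 and 8.70 under CON ASO, 8.05, 8.66 and 8.81 in APP/PS1 PBS and 7.84, 8.35 and 8.63 in WT PBS. All 11 CD33 ASO arrays lay below the median of each other group, and 4 of 11 lay below every CON ASO array. On the log2 scale Fyco1 fell by 0.48 ± 0.10 against CON ASO (adjusted p = 0.0171) and by 0.59 ± 0.11 against APP/PS1 PBS (adjusted p = 0.00123). Over the chips the difference from CON ASO was -0.69 to -0.18 and that from APP/PS1 PBS -0.69 to -0.37, and over the days -0.55 to -0.47 and -0.80 to -0.31. The call against CON ASO was lost with median centring (adjusted p = 0.0554) and with the compared groups fitted alone (adjusted p = 0.0969). Without the mouse labelled CD33 ASO replicate 3 both limma calls held, against CON ASO (-0.47, adjusted p = 0.0337) and against APP/PS1 PBS (-0.58, adjusted p = 0.00237).

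In hippocampus Fyco1 was at 7.12, 7.86 and 8.19 under CD33 ASO, against 7.59, 8.17 and 8.50 under CON ASO, 7.69, 8.25 and 8.73 in APP/PS1 PBS and 7.60, 8.10 and 8.62 in WT PBS. The groups overlapped, with 11 of 12 CD33 ASO arrays below the CON ASO median and 12 of 12 below the APP/PS1 PBS median. The differences were -0.30 ± 0.11 against CON ASO (adjusted p = 0.723) and -0.45 ± 0.12 against APP/PS1 PBS (adjusted p = 0.0668), neither of them called. The second was called with chip as a block (-0.45, adjusted p = 0.0125), with collection day as a block (-0.49, adjusted p = 0.0401) and with array weights (-0.46, adjusted p = 0.0364). It was also called without both mice that have no cortical array (-0.50, adjusted p = 0.0211) and without these mice and the mouse labelled replicate 3 (-0.51, adjusted p = 0.0214). It stayed uncalled without background correction, with median centring, with the deposited value table, and with no filter or a stricter one. The same held with the compared groups alone, with the mean of all probes, and without the mouse labelled CD33 ASO replicate 3 alone. The difference from CON ASO was called under none of these settings.

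Some oligodendrocyte markers were lower under both oligonucleotides than in APP/PS1 PBS. Of 8 tested, 3 were lower under CD33 ASO than in APP/PS1 PBS hippocampus and 5 in cortex (0.325% and 0.843% of all probes were lower). Under CON ASO 2 and 4 were lower than in APP/PS1 PBS (0.471% and 1.48% of all probes were lower). In cortex their mean signal per array ran from 10.97 to 11.55 under CD33 ASO, 11.09 to 11.69 under CON ASO and 11.54 to 11.76 in APP/PS1 PBS. Between CD33 ASO and CON ASO 0 of 8 were called in either tissue by limma (3 in hippocampus and 1 in cortex at an unadjusted p under 0.05). Of 10 listed markers of border macrophages, 5 were tested in hippocampus and 7 in cortex. By limma 3 and 1 of them were lower under CD33 ASO than under CON ASO (0.09% and 0.0836% of all probes were lower). These markers were dim, with a mean per hippocampal array of 5.48 to 6.29 under CD33 ASO and 6.26 to 7.26 under CON ASO. The part of these cell types in the Fyco1 result was not tested.

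**Figure D5:**
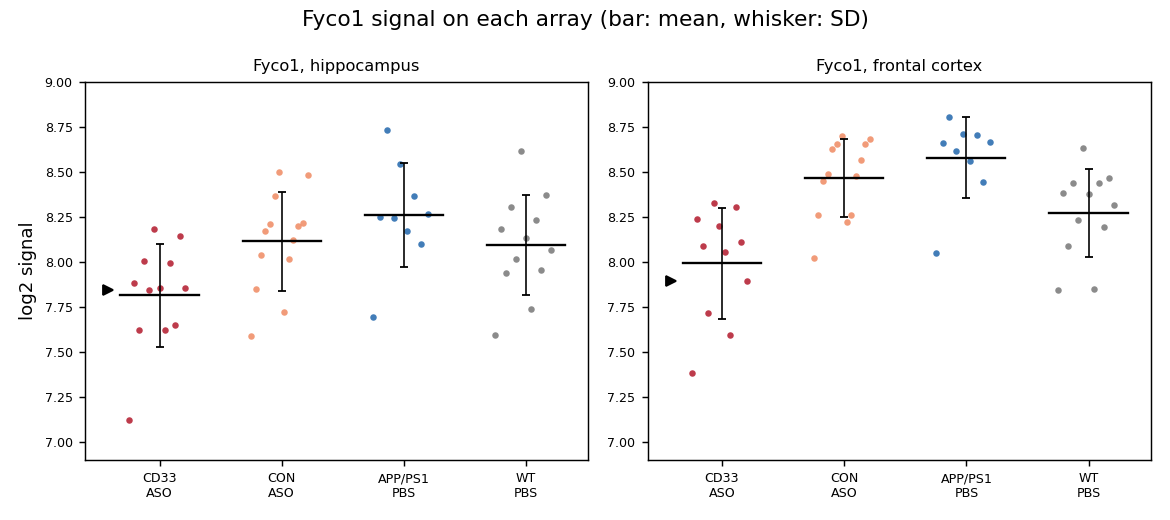
Log2 signal of Fyco1 (y axis) on every array of the 4 groups (x axis) in hippocampus (left) and frontal cortex (right), with bars for the mean, whiskers for SD and an arrowhead for the mouse labelled CD33 ASO replicate 3. The CD33 ASO mean is the lowest of the 4 in both tissues, and all 11 cortical CD33 ASO points lie below the medians of the other groups.

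Of 92 tested genes of the wider lysosomal lists, 3 (3.26%) were called in CON ASO minus APP/PS1 PBS cortex, near the 2.63% of all probes. The sulfatase Arsg fell by 0.49 ± 0.11 (adjusted p = 0.01), and the transporter Slc15a4 and the chloride-channel partner Ostm1 rose by 0.23 ± 0.06 (adjusted p = 0.035) and 0.10 ± 0.03 (adjusted p = 0.0315). In the test of a difference between tissues, limma called 0 of 33 lysosomal genes for each treatment comparison. For CD33 ASO minus CON ASO it called 0% of all probes. For CD33 ASO minus APP/PS1 PBS, 0.00672% of all probes had a larger and 0.0403% a smaller difference in hippocampus, 0.047% together. For CON ASO minus APP/PS1 PBS these shares were 0.00672%, 0.0605% and 0.0672%. Each comparison had 1 gene at an unadjusted p under 0.05. In the same order, 1365, 1237 and 1586 of 14884 probes had such a p.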

How the data were processed

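Total RNA was labelled with biotin and read on Illumina bead arrays, per the labels. The deposited signal table gives an intensity, already background-subtracted by an unstated method, and a detection p-value per probe and array, per the file headers. For tools, the submitters' processing notes list BeadStudio, GenomeStudio and Partek. The deposited value table, on a log2 scale of unstated offset, served as an alternative. From the intensities, neqc of limma 3.58.1 (R 4.3.3) gave quantile-normalised log2 signals per tissue with an offset of 16. Probes needed a detection p under 0.05 on at least 9 arrays. One limma model per tissue (trend and robust) fitted the 4 groups. The joint fit took mice as blocks (correlation 0.169, statmod 1.5.0). The fits were tested on simulated data. Replicates are separate mice, and 0 of 4095 array pairs were identical.

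Values per array are given for up to 8 genes with the largest called genotype difference, for every gene called by treatment and for up to 6 interactions, and up to 3 genes per direction are named from each wider list; Mcoln1 was chosen after its values were seen. The members and lists were chosen with earlier results of these data known. The microglial relation and the fit without all 3 doubted mice were added after seeing the data. Alternatives covered background correction, normalisation, the value table, filters, array weights, chip, day or replicate number as blocks, the compared groups alone, all probes of a gene, and each array left out.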

Additional observations from a re-analysis of the deposited data

Results flagged for a closer look

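In the groups of 9 arrays, the gap of the highest or lowest array to its neighbour, as a share of the group's range, was set against Dixon's critical value in 65 gene and tissue sets, and chance passes about 1 in 20. Only the APP/PS1 PBS groups held 9 arrays, and it passed in 5 sets. In hippocampus, replicate 5 was highest for Lipa at 7.46 with the next at 6.86 (share 0.591), lowest for Ppt1 at 8.49 with the next at 8.87 (0.568) and lowest for Laptm4a at 9.60 with the next at 10.18 (0.754). Replicate 7 was lowest for Gaa in hippocampus, at 12.02 with the next at 12.33 (0.558). In cortex, replicate 1 was lowest for Fyco1, at 8.05 with the next at 8.44 (0.522).

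The APP/PS1 PBS minus WT PBS difference of 7 genes differed between tissues by the interaction test. Hippocampus minus frontal cortex was -0.86 for Gusb, -0.65 for Grn, -0.64 for Cd63, -0.49 for Hexa, -0.46 for Laptm5, -0.44 for Man2b1 and -0.42 for Lamp2.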

How the results depend on the processing

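No called value changed its sign under any setting run. For APP/PS1 PBS minus WT PBS the count of genes called was 6 to 8 in hippocampus and 19 to 21 in cortex over all settings, and 6 to 7 and 19 to 20 with each array left out. CD33 ASO minus CON ASO gave 0 to 0 in hippocampus and 1 to 2 in cortex with each array left out (Asah1 was gained without CD33 ASO replicate 11), and in cortex it gave 0 with median centring and 0 with the compared groups alone. CD33 ASO minus APP/PS1 PBS gave 1 to 1 in cortex with each array left out. In hippocampus it gave 1, Fyco1, with array weights, with chip as a block, with collection day as a block, with the replicate block, without both hippocampal mice that have no cortical array and, chosen after seeing the data, without all 3 doubted mice. With each array left out it gave 0 to 1 there, gaining Fyco1 without CD33 ASO replicate 7 or 10 or APP/PS1 PBS replicate 9. CON ASO minus APP/PS1 PBS gave 1 in cortex with array weights (Asah1) and 0 to 0 with each array left out. In hippocampus it gave 2 with array weights (Hexa and Grn), 1 with the replicate block (Lamp2) and 0 to 1 with each array left out (Hexa, without APP/PS1 PBS replicate 5). The cause of these moves was not tested. Other cortical genotype calls were lost for Lamp1 with median centring, Lipa with the replicate block (adjusted p = 0.0794), Asah1 and Manba with the mean of all probes, and Fyco1 with no filter. The replicate block called 7 genes in hippocampus and 19 in cortex for genotype. Replicate numbers mark no shared animal, but they run in the order of the chips, so some same-numbered arrays shared a chip. Each probe's group mean was taken off before same-numbered arrays were correlated. What remained in APP/PS1 PBS and WT PBS correlated above 0.1 in 6 of 9 pairs in hippocampus and 3 of 9 in cortex. Dim probes such as Sgsh and Galc are limited by their signal over background.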
